A study of Homo sapiens with 12 samples.

Results

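The genes described here are the tubulins and the enzymes that modify tubulin. They were chosen by symbol, from the gene names of the array's annotation, and no measured value entered the rule. Earlier results of these data were known when the set was chosen. The set holds 44 of the 22392 genes measured, of which 20 encode tubulins (7 alpha, 9 beta, 2 gamma, and TUBD1 and TUBE1 for delta- and epsilon-tubulin) and 24 encode enzymes or enzyme partners. TUBA3C, TUBA3D, TUBA8 and TTLL3 carry probe sets shared with other symbols and were not analysed here.

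Microtubules are polymers of alpha- and beta-tubulin dimers, and gamma-tubulin starts their growth from the centrosome, while delta- and epsilon-tubulin belong to centrioles. After a microtubule has formed, enzymes write marks on it. ATAT1 acetylates a lysine of alpha-tubulin, which HDAC6 and SIRT2 deacetylate. A complex of VASH1 or VASH2 with SVBP removes the last tyrosine of alpha-tubulin and TTL puts it back, while TTLL enzymes add chains of glutamate or glycine to the tails and the carboxypeptidases AGTPBP1 and AGBL1 to AGBL5 trim glutamate from them.

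RNA was measured on 12 arrays in 4 groups of 3 samples. The cells were HCC38, an established line of triple-negative breast cancer, so each group is a replicate set of the same line and not of different tumors. The groups received 5 µM erastin plus 5 µM tubacin, 5 µM erastin alone, 5 µM tubacin alone, or DMSO as the control. Erastin blocks the import of cystine, and tubacin inhibits HDAC6. The question put to the data was how the RNA of tubulin and of its modifying enzymes differed between these groups. The labels give 18 h of treatment, whereas the published methods give a longer time. The source names of the samples count upward from HCC38 to other line names, while their titles and cell line entries read HCC38 throughout, and all were taken as HCC38. All 6 epithelial markers measured lay above the level of the olfactory receptor genes described next (means 4.77 to 10.7), and none of the 7 markers of leukocytes, endothelium and fibroblasts did (1.64 to 2.55). Of the hormone receptors, ESR1 lay below that level (2.18) and PGR slightly above it (3.72).

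Values are RMA values on the log2 scale, so a difference of 1 is 2-fold. A gene is said to have risen or fallen where limma, with adjustment over the whole array, gave an adjusted p under 0.05, and each change carries its standard error (SE). With 3 arrays per group the median SE over the 44 genes was 0.14. Whether the 3 samples of each group were separate cultures is stated neither in the labels nor in the methods, so the p-values speak only of the spread among these arrays, and that spread may be technical. In RNA of whole cultures, fewer cells that carry a transcript and less of it per cell cannot be told apart. As a mark of a dim probe set, the 95th percentile of 382 olfactory receptor genes was used (3.33). Of the 44 genes 32 lay above it, and 12 lay at or below it with means of 1.97 to 3.32. Those 12 were AGBL1, AGBL2, AGBL3, AGBL4, TTLL2, TTLL8, TTLL9, TTLL13, TUBA3E, TUBAL3, TUBB1 and TUBB8. Alpha-tubulin genes have nearly the same coding sequence as each other, as do beta-tubulin genes, and how far the probe sets tell them apart was not tested.

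With erastin plus tubacin, 18 of the 44 genes changed against control, 7 higher and 11 lower. That is 15.9% and 25% of the genes, against 14% and 17.1% of all genes measured. Of the 32 genes of the set above the dim mark 21.9% rose and 31.2% fell, against 20.8% and 26% of all genes above it. The median change of the 44 was 0.03, against -0.01 over all genes. Tubulin genes and enzyme genes were both split, with 3 higher and 6 lower among the 20 tubulins and 4 higher and 5 lower among the 24 enzymes. With erastin alone 5 of the 44 changed, 3 higher and 2 lower, where 3.94% and 4.41% of all genes rose and fell. With tubacin alone none of the 44 passed limma's threshold, where 0.107% of all genes rose and 0.125% fell; 2 of the 44 had an unadjusted p under 0.05, as did 2290 of all 22392 genes, and the methods' t-test gave 4 of the 44 and 2011 of all genes at that level. Scaled to 6 reference genes instead, the median change of all genes with erastin plus tubacin was higher by 0.13. That comparison then gave 10 of the 44 genes higher and 9 lower. All genes shifted alike, with 4507 higher and 2585 lower against 3129 and 3827 without this scaling. Of the 6 reference genes 2 themselves fell with both drugs by limma, HPRT1 (-0.35 ± 0.076, adjusted p = 0.00435) and PPIA (-0.59 ± 0.075, adjusted p = 0.000135), and 4 did not pass. These calls rest on the RMA values themselves. They therefore cannot show whether the RMA values or the scaled values lie nearer to the RNA levels, and this was not tested.

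**Figure D1:**
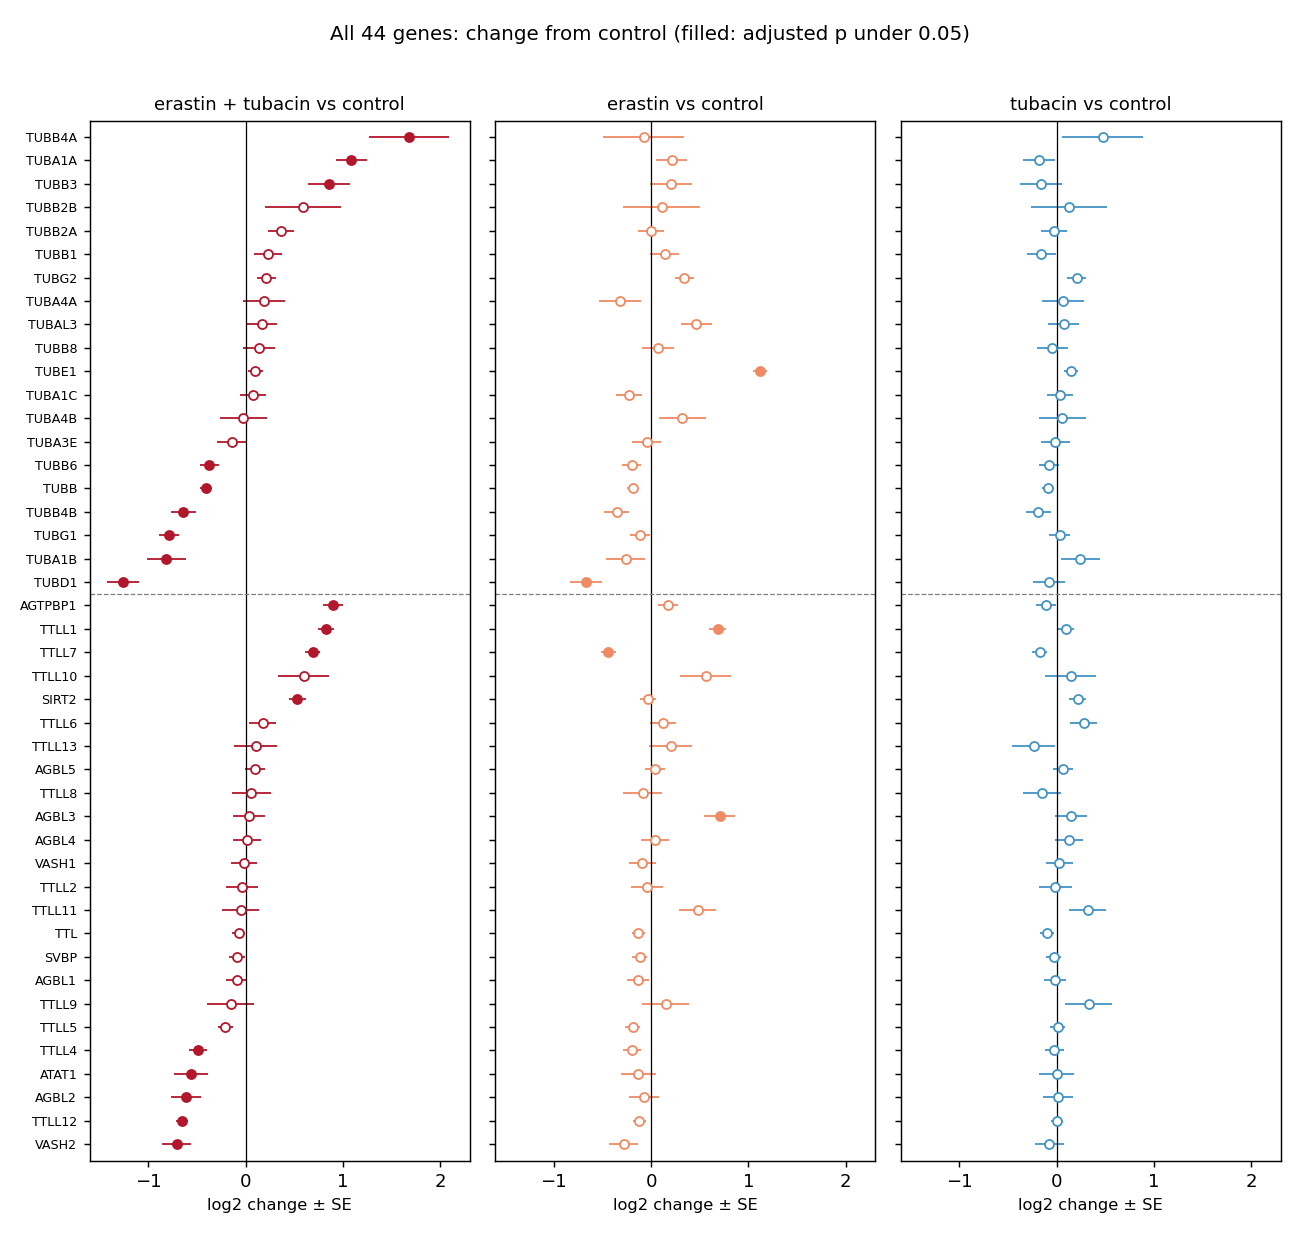
Change against control of all 44 genes (log2, horizontal axis, with SE) with erastin plus tubacin, erastin and tubacin, from left to right, with tubulins above the dashed line and enzymes below it. Filled points passed an adjusted p of 0.05, which 18 genes did with erastin plus tubacin, 5 with erastin and 0 with tubacin.

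Among the alpha-tubulins, TUBA1A rose with the combination and TUBA1B fell. TUBA1A, best known from neurons, had values of 6.39, 6.31 and 6.49 with erastin plus tubacin, against 5.75, 5.37 and 5.44 with erastin, 5.14, 5.45 and 4.79 with tubacin and 5.45, 5.20 and 5.28 in control. Each sample with both drugs was above all 9 others. The change against control was 1.09 ± 0.16 (adjusted p = 0.000385), a 2.12-fold rise, while erastin alone gave 0.21 ± 0.16 (adjusted p = 0.51) and tubacin alone -0.18 ± 0.16 (adjusted p = 0.76). TUBA1B, an alpha-tubulin of most cell types, had 4.38, 5.15 and 4.50 with erastin plus tubacin, against 5.11, 5.15 and 5.43 with erastin, 5.51, 6.06 and 5.63 with tubacin and 5.52, 5.52 and 5.44 in control. Its samples with both drugs lay below every control, although replicate 2 reached the values seen with erastin. It fell by 0.81 ± 0.20 (adjusted p = 0.0092). TUBA1C, TUBA3E, TUBA4A, TUBA4B and TUBAL3 did not pass, with changes between -0.14 and 0.19. TUBA4A and TUBA4B overlap in the genome.

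The beta-tubulins split as well. TUBB, TUBB4B and TUBB6, which many cell types use, fell, and TUBB3 and TUBB4A, which are known as neuronal forms, rose. TUBB had 12.24, 12.27 and 12.31 with erastin plus tubacin, against 12.46, 12.49 and 12.51 with erastin, 12.56, 12.57 and 12.63 with tubacin and 12.68, 12.69 and 12.65 in control. The 4 groups did not overlap at all. TUBB fell by 0.40 ± 0.06 with both drugs (adjusted p = 0.000384), and the values against control were -0.19 ± 0.06 with erastin (adjusted p = 0.0832) and -0.09 ± 0.06 with tubacin (adjusted p = 0.659). TUBB4B had 7.71, 7.64 and 7.68 with erastin plus tubacin, against 7.93, 7.98 and 7.99 with erastin, 7.89, 8.19 and 8.30 with tubacin and 8.56, 8.31 and 8.08 in control. The samples with both drugs were the 3 lowest of the 12. It fell by 0.64 ± 0.13 (adjusted p = 0.00264), or 1.56-fold. TUBB6 fell by 0.37 ± 0.10 (adjusted p = 0.0147).

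TUBB3 had 5.44, 5.63 and 5.73 with erastin plus tubacin, against 4.75, 4.84 and 5.23 with erastin, 4.65, 4.90 and 4.18 with tubacin and 4.36, 4.83 and 5.03 in control. All 3 samples with both drugs were above the other 9. It rose by 0.86 ± 0.22 (adjusted p = 0.0106). TUBB4A had 6.43, 4.70 and 6.76 with erastin plus tubacin, against 4.20, 4.49 and 3.93 with erastin, 4.83, 4.70 and 4.73 with tubacin and 4.12, 4.45 and 4.28 in control. Replicates 1 and 3 stood far above the rest, whereas replicate 2 lay among the tubacin samples and just above the highest control. TUBB4A rose by 1.68 ± 0.41 (adjusted p = 0.00961), a value that was 2.31 without that replicate, and the call was lost with only these 6 samples in the fit (adjusted p = 0.0538). TUBB2A had 0.36 ± 0.13 (adjusted p = 0.0612) and TUBB2B 0.59 ± 0.39 (adjusted p = 0.312), and TUBB1 and TUBB8 were dim and did not pass.

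Gamma-, delta- and epsilon-tubulin, which serve centrosomes and centrioles, did not move together. TUBG1, the main gamma-tubulin, had 9.69, 9.93 and 9.70 with erastin plus tubacin, against 10.55, 10.43 and 10.36 with erastin, 10.70, 10.61 and 10.46 with tubacin and 10.43, 10.71 and 10.55 in control. Only the samples with both drugs were below 10, and the other 9 overlapped. It fell by 0.79 ± 0.10 (adjusted p = 0.000166), 1.73-fold, while TUBG2 had 0.21 ± 0.10 (adjusted p = 0.137). TUBD1 had 6.10, 6.83 and 6.52 with erastin plus tubacin, against 7.04, 6.96 and 7.23 with erastin, 7.69, 7.72 and 7.58 with tubacin and 7.84, 7.83 and 7.56 in control. Both groups with erastin lay below every tubacin and control sample, and the combination lay lowest. The fall was 1.26 ± 0.16 with both drugs (adjusted p = 0.000142) and 0.67 ± 0.16 with erastin (adjusted p = 0.0307). The erastin call was lost when any erastin replicate, or control replicate 1 or 2, was left out, with values of -0.74 to -0.61.

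TUBE1 rose with erastin and not with the combination. It had 6.22, 6.14 and 6.13 with erastin plus tubacin, against 7.11, 7.17 and 7.26 with erastin, 6.24, 6.15 and 6.24 with tubacin and 6.16, 6.01 and 6.01 in control. The erastin samples stood alone, and the samples with both drugs overlapped those with tubacin and control. TUBE1 rose by 1.12 ± 0.07 with erastin (adjusted p = 1.49e-05), 2.17-fold, and had 0.10 ± 0.07 with both drugs (adjusted p = 0.353) and 0.15 ± 0.07 with tubacin (adjusted p = 0.536).

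**Figure D2:**
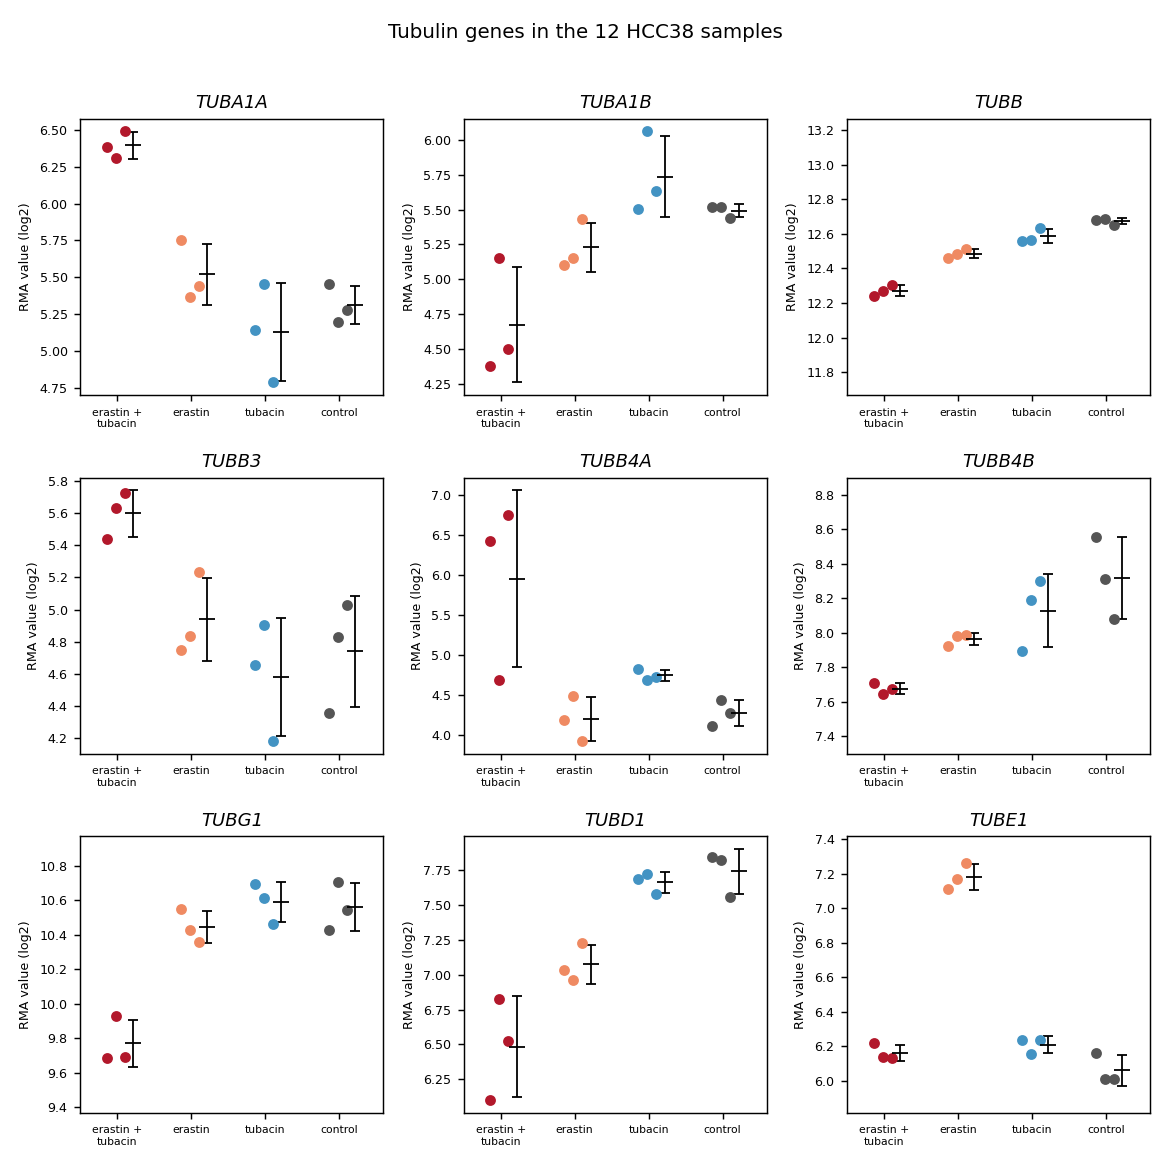
RMA values (log2, vertical axis, each panel with its own range) of 9 tubulin genes in each sample with erastin plus tubacin, erastin, tubacin and control, with the mean and SD of the 3 samples beside the points. TUBE1 is high in the erastin samples alone, TUBG1 is low with both drugs alone, and the TUBB4A samples with both drugs spread from 4.70 to 6.76.

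Promoter windows from RefSeq (GRCh38.p14, 250 bases before to 50 after the start site, 5′ to 3′ on the gene's strand) were found for 43 of the 44 genes, TTLL4 being the exception. The windows of the pair that erastin moved in opposite directions, TUBE1 and TUBD1, are shown first, and then those of TUBA1A and TUBB4B, which the combination moved in opposite directions. Capitals mark matches, on either strand, to 4 motifs chosen after the values were seen.
TUBE1 promoter window, chr6:112087433-112087732, minus strand: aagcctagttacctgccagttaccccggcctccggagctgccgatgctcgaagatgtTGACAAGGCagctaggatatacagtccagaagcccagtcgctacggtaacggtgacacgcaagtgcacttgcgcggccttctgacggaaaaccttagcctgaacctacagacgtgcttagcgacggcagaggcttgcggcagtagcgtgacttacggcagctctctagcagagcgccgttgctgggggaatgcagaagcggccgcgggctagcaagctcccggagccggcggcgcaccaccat
TUBD1 promoter window, chr17:59892894-59893193, minus strand: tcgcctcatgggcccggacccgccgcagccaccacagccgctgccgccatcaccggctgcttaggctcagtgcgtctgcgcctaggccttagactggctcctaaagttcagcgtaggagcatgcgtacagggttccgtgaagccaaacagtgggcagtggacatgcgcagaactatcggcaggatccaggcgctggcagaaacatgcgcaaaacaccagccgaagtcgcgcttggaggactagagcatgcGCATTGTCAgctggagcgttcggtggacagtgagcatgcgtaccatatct
TUBA1A promoter window, chr12:49189031-49189330, minus strand: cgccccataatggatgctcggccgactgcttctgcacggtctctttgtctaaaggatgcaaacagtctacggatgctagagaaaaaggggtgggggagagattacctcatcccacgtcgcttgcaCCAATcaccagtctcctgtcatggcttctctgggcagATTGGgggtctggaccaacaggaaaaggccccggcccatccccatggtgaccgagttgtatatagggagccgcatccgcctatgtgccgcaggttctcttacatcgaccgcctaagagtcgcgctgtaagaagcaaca
TUBB4B promoter window, chr9:137241037-137241336, plus strand: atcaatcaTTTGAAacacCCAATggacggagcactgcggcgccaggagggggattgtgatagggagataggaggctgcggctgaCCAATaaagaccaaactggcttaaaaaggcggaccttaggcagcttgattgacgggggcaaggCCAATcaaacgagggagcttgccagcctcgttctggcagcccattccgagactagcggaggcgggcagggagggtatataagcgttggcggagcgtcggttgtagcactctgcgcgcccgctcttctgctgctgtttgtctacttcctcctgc
The motifs were CCAAT (the CCAAT box), TTTGAA (the cell cycle homology region), TGATGNAA (the composite element of ATF4 and C/EBP) and TGACNNNGC (the core of the antioxidant response element). TUBE1 and TUBD1 each held the antioxidant core, 193 bases before the start site in TUBE1 and, on the other strand, at the start site itself in TUBD1. The core is in 13.3% of all 35116 windows and in 11 of the 55 windows of the 44 genes. TUBA1A held CCAAT, read on 1 or the other strand, 125 and 88 bases before its start, and TUBB4B held it 232, 166 and 103 bases before, with TTTGAA at 242. CCAAT is in 34.6% of all windows and in 38.2% of those of the tubulin and enzyme genes. It was in a window of 4 of the 7 genes that rose with both drugs and of 5 of the 10 with a window that fell. A gene can have several windows, so these counts of genes cannot be set against the shares of windows. TTTGAA is in 15.2% of all windows, and TGATGNAA, in 3.62% of all windows, had 0 matches among these genes. A match is a run of letters and not a shown binding site.

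Of the enzymes of acetylation, ATAT1 fell and SIRT2 rose with the combination. ATAT1 had 6.31, 6.49 and 6.74 with erastin plus tubacin, against 6.77, 7.07 and 6.99 with erastin, 6.94, 7.28 and 7.001 with tubacin and 7.44, 7.02 and 6.76 in control. The samples with both drugs were the lowest, but replicate 3 of that group and replicate 3 of the control differed by little. The fall was 0.56 ± 0.18 (adjusted p = 0.0327), and the call was lost in 7 of 12 alternatives that kept all samples. Among these were scaling to the reference genes (adjusted p = 0.0714), only the groups compared (adjusted p = 0.086), the replicate block (adjusted p = 0.0569) and every probe set tested (adjusted p = 0.0649). The methods' t-test gave an unadjusted p of 0.0736. The call was also lost without control replicate 1 (-0.38) or 2 (-0.59) or erastin plus tubacin replicate 1 (-0.46) or 2 (-0.55). SIRT2, a deacetylase that depends on NAD, had 5.86, 5.82 and 6.004 with erastin plus tubacin, against 5.43, 5.31 and 5.25 with erastin, 5.49, 5.54 and 5.71 with tubacin and 5.40, 5.39 and 5.30 in control. Those with both drugs were above the other 9, and the tubacin samples were above all controls. SIRT2 rose by 0.53 ± 0.09 (adjusted p = 0.000699) with both drugs and had 0.22 ± 0.09 with tubacin (adjusted p = 0.419), the lowest adjusted p that tubacin gave among the 44 genes.

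Of the 4 genes of the tyrosine cycle, VASH2 fell with the combination and TTL, SVBP and VASH1 did not pass. VASH2 had 3.33, 3.59 and 3.64 with erastin plus tubacin, against 3.99, 4.07 and 3.78 with erastin, 3.96, 4.52 and 3.98 with tubacin and 4.25, 4.19 and 4.26 in control. The group with both drugs was below the other 9 samples, with values close to the dim mark. It fell by 0.71 ± 0.15 (adjusted p = 0.0038). TTL had 9.21, 9.25 and 9.12 with erastin plus tubacin, against 9.15, 9.16 and 9.09 with erastin, 9.14, 9.22 and 9.15 with tubacin and 9.35, 9.23 and 9.23 in control. The samples with both drugs overlapped all 3 other groups. SVBP had 7.40, 7.25 and 7.30 with erastin plus tubacin, against 7.22, 7.28 and 7.36 with erastin, 7.37, 7.29 and 7.46 with tubacin and 7.49, 7.41 and 7.31 in control, and VASH1 had 4.61, 4.89 and 4.52 with erastin plus tubacin, against 4.52, 4.81 and 4.48 with erastin, 4.59, 4.96 and 4.61 with tubacin and 4.57, 4.73 and 4.78 in control. For SVBP and VASH1 too, the groups overlapped. TTL gave -0.07 ± 0.07 (adjusted p = 0.489), SVBP -0.09 ± 0.08 (adjusted p = 0.481) and VASH1 -0.02 ± 0.14 (adjusted p = 0.945).

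Of the 12 TTLL genes, TTLL1 and TTLL7 rose and TTLL4 and TTLL12 fell with the combination. TTLL1, the catalytic subunit of a polyglutamylase, had 6.97, 7.01 and 6.997 with erastin plus tubacin, against 6.95, 6.80 and 6.80 with erastin, 6.40, 6.15 and 6.25 with tubacin and 6.18, 6.25 and 6.08 in control. The groups with erastin were separate from those without it. TTLL1 rose by 0.82 ± 0.08 with both drugs (adjusted p = 2.56e-05) and by 0.68 ± 0.08 with erastin (adjusted p = 0.000826), and the difference between these groups was 0.14 ± 0.08 (adjusted p = 0.276). TTLL7, a polyglutamylase that acts on beta-tubulin, had 7.37, 7.23 and 7.23 with erastin plus tubacin, against 6.13, 6.23 and 6.10 with erastin, 6.46, 6.37 and 6.41 with tubacin and 6.65, 6.50 and 6.62 in control. The 4 groups did not overlap, with both drugs highest and erastin lowest. It rose by 0.69 ± 0.07 with both drugs (adjusted p = 3.96e-05) and fell by 0.44 ± 0.07 with erastin (adjusted p = 0.00517).

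TTLL12, a family member for which no chain-forming activity is established, had 9.21, 9.11 and 9.19 with erastin plus tubacin, against 9.67, 9.75 and 9.70 with erastin, 9.83, 9.80 and 9.86 with tubacin and 9.80, 9.81 and 9.86 in control. The replicates lay within 0.10 of each other in each group, and those with both drugs were far below the rest. It fell by 0.66 ± 0.06 (adjusted p = 1.68e-05). TTLL4, an initiating polyglutamylase, fell by 0.49 ± 0.09 (adjusted p = 0.00193). The other 8 TTLL genes did not pass, among them TTLL5 at -0.21 ± 0.08 (adjusted p = 0.06) and TTLL10 at 0.60 ± 0.26 (adjusted p = 0.121).

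Of the 6 carboxypeptidase genes, AGTPBP1 rose and AGBL2 fell with both drugs, and AGBL3 rose with erastin. AGTPBP1, which shortens glutamate chains, had 7.01, 6.83 and 6.90 with erastin plus tubacin, against 6.19, 6.10 and 6.27 with erastin, 5.88, 5.90 and 5.94 with tubacin and 5.90, 6.25 and 5.89 in control. Only the samples with both drugs exceeded 6.3. It rose by 0.90 ± 0.10 (adjusted p = 6.5e-05), 1.86-fold. AGBL2 and AGBL3 lay at or below the dim mark on average, so their levels are not shown to exceed background. AGBL2 had 2.74, 2.89 and 2.99 with erastin plus tubacin, against 3.72, 3.36 and 3.17 with erastin, 3.57, 3.48 and 3.45 with tubacin and 3.77, 3.29 and 3.41 in control. The samples with both drugs were the 3 lowest, and the change against control was a fall of 0.62 ± 0.15 (adjusted p = 0.0104). AGBL3 had 2.56, 2.40 and 2.25 with erastin plus tubacin, 3.02, 2.80 and 3.39 with erastin, 2.24, 2.67 and 2.65 with tubacin and 2.49, 2.38 and 2.23 in control. The erastin samples were above the other 9, a rise against control of 0.70 ± 0.16 (adjusted p = 0.0253). That call was lost without control replicate 2 or 3 or erastin replicate 1 or 3, with values of 0.55 to 0.73. AGBL1, AGBL4 and AGBL5 did not pass in any comparison.

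**Figure D3:**
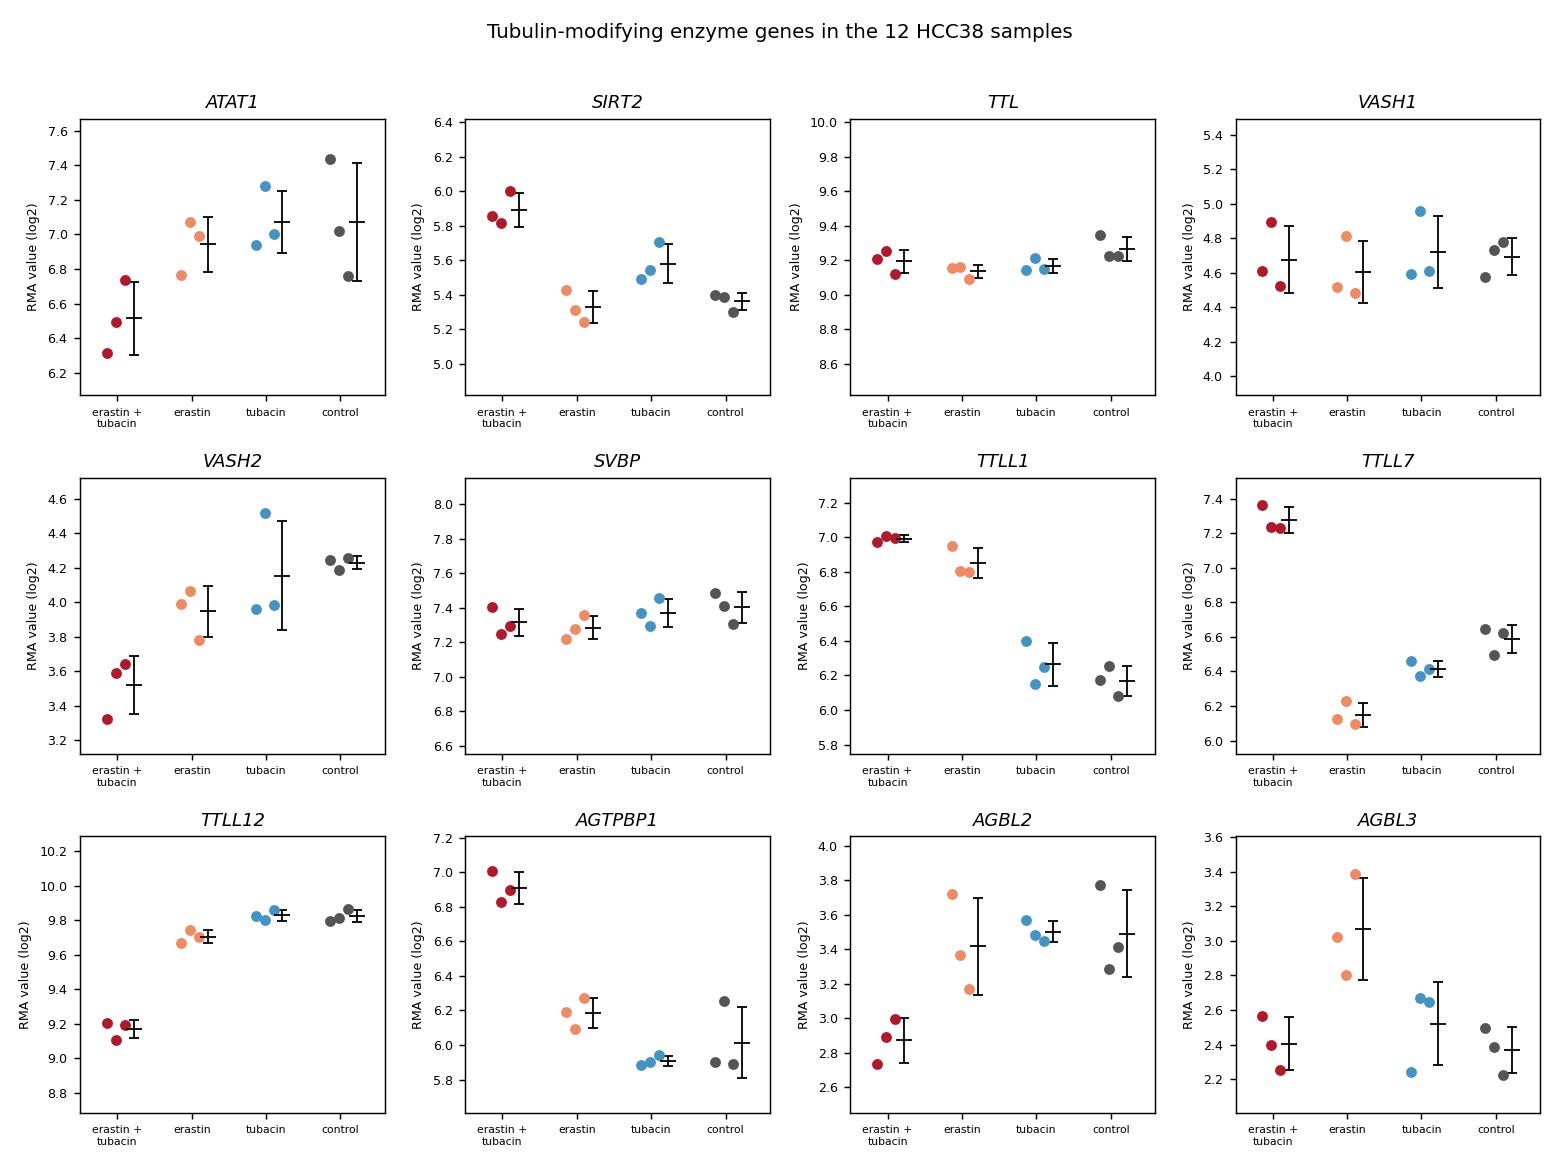
RMA values (log2, vertical axis, each panel with its own range) of 12 enzyme and partner genes in each sample with erastin plus tubacin, erastin, tubacin and control, with the mean and SD of the 3 samples beside the points. TTLL7 is highest with both drugs and lowest with erastin, TTLL1 is high in both groups with erastin, and TTL overlaps between both drugs and control.

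Against erastin alone, the combination changed 14 of the 44 genes, 6 higher and 8 lower, where 11.2% and 14.6% of all genes were higher and lower. Its erastin samples are also those of the comparison with control. The genes that were higher than with erastin were TUBB4A (1.75 ± 0.41, adjusted p = 0.00923), TTLL7 (1.13 ± 0.07, adjusted p = 2.45e-06), TUBA1A, AGTPBP1, TUBB3 and SIRT2, and those that were lower were TUBE1 (-1.02 ± 0.07, adjusted p = 4.45e-06), TUBG1, AGBL3, TUBD1, AGBL2, TTLL12, TTLL4 and TUBB. Several of these calls depended on a sample. TUBB3 (0.66 ± 0.22, adjusted p = 0.0455) was not called without any erastin plus tubacin replicate, without erastin replicate 1 or 2, control replicate 2 or tubacin replicate 1, TUBB (-0.21 ± 0.06, adjusted p = 0.0227) not without erastin replicate 2 or 3 or erastin plus tubacin replicate 1 or 2, AGBL2 (-0.54 ± 0.15, adjusted p = 0.0237) not without erastin replicate 1 or 2 or erastin plus tubacin replicate 1 or 2, and TUBD1 (-0.59 ± 0.16, adjusted p = 0.0202) not without erastin replicate 3 or erastin plus tubacin replicate 1. The TUBB value was -0.10 when scaled to the reference genes (adjusted p = 0.373), and the TUBB4A call was lost with only these groups in the fit (adjusted p = 0.0573). With that scaling 8 of the 44 genes were higher and 5 lower, and of all genes 3538 were higher and 2137 lower, against 2508 and 3274 without it.

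The interaction, which is how far the combined change departs from the added changes of erastin and tubacin, passed for 7 of the 44 genes, 3 positive and 4 negative, where 6.2% and 8.84% of all genes had a positive and a negative one. It was positive for TTLL7 (1.30 ± 0.11, adjusted p = 3.96e-05), TUBA1A (1.06 ± 0.23, adjusted p = 0.01) and AGTPBP1 (0.83 ± 0.15, adjusted p = 0.0033). It was negative for TUBE1 (-1.17 ± 0.10, adjusted p = 6.28e-05), AGBL3 (-0.82 ± 0.23, adjusted p = 0.0379), TUBG1 (-0.71 ± 0.15, adjusted p = 0.00847) and TTLL12 (-0.54 ± 0.09, adjusted p = 0.00222). For TUBE1, erastin raised the transcript only in the absence of tubacin, and for TTLL7 erastin gave a fall without tubacin and a rise above control with it. TUBB4A, whose samples with both drugs were spread, had an interaction of 1.28 ± 0.59 (adjusted p = 0.19). Scaled to the reference genes, 4 of the 44 interactions were positive and 3 negative, and over all genes 2130 were positive and 1139 negative, against 1389 and 1980 without this scaling.

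Genes that act with tubulin were counted beside these, with the shares of all genes as the background. Those shares were 14% higher and 17.1% lower with both drugs, and 3.94% and 4.41% with erastin. Among all genes above the dim mark, where most genes of these lists lay, they were 20.8% and 26%, and 6.05% and 6.58%. The lists were chosen with earlier results of these data known, so an excess over these shares is described and was not tested. The gamma-tubulin ring complex anchors and templates microtubules, and of its 7 genes measured 5 fell with both drugs and none rose. They were TUBGCP3 (-0.89 ± 0.07, adjusted p = 5.8e-06), MZT1 (-0.82), TUBGCP4 (-0.77), TUBGCP5 (-0.52) and NEDD1 (-0.43), and the list's median was -0.52. With erastin alone 4 of the 7 fell. Of 18 measured genes that fold and assemble tubulin, 9 fell and 1 rose with both drugs, with a median of -0.24. Scaled to the reference genes, 4 of these fell and 1 rose. Those that fell included the chaperonin subunits CCT8 (-0.64 ± 0.07, adjusted p = 2.73e-05), CCT7 (-0.55) and CCT5 (-0.52), and the one that rose was the cofactor TBCA (0.52). TBCA had a mean of 3.66 over the 12 samples, close to the dim mark of 3.33.

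With both drugs 14% of all genes rose and 17.1% fell, or 20.8% and 26% of those above the dim mark. Of 24 measured genes for proteins that bind or sever microtubules, 13 rose and 6 fell with both drugs, with a median of 0.33. MAP1A (2.48 ± 0.22, adjusted p = 1.07e-05), MAPT, which encodes tau (1.42), MAPRE3 (1.16) and MAP2 (1.02), which stabilize or track microtubules, were among those that rose. FIGNL1 (-1.53 ± 0.08, adjusted p = 2.08e-07) and FIGN (-1.18), of the fidgetin family of severing enzymes, fell. The other genes that fell were KATNA1 (-0.42), STMN1 (-0.28), CKAP5 (-0.27) and MAPRE1 (-0.20). KATNAL1, also a severing enzyme, rose (0.52 ± 0.11, adjusted p = 0.00495), so the directions did not divide by these functions. With erastin alone 1 of the 24, MAP2 (0.51), rose and 1, FIGN (-0.50), fell, and 5 of the 24 passed when dim genes were left out of the fit. The interaction passed for 13 of the 24, 10 positive and 3 negative, where 6.2% and 8.84% of all genes were. Among all genes above the dim mark the shares were 9.22% and 13.9%. With the replicate block the interaction passed for 8 of the 24. Of 7 partners of the modifying enzymes 3 fell with both drugs, HDAC6 (-0.36 ± 0.09, adjusted p = 0.013), CCSAP (-0.72) and LRRC49 (-0.28), and none rose, while scaled to the reference genes 1 fell and 1 rose. With tubacin alone no gene of these 4 lists passed, and HDAC6, the target of tubacin, had -0.15 ± 0.09 (adjusted p = 0.636).

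**Figure D4:**
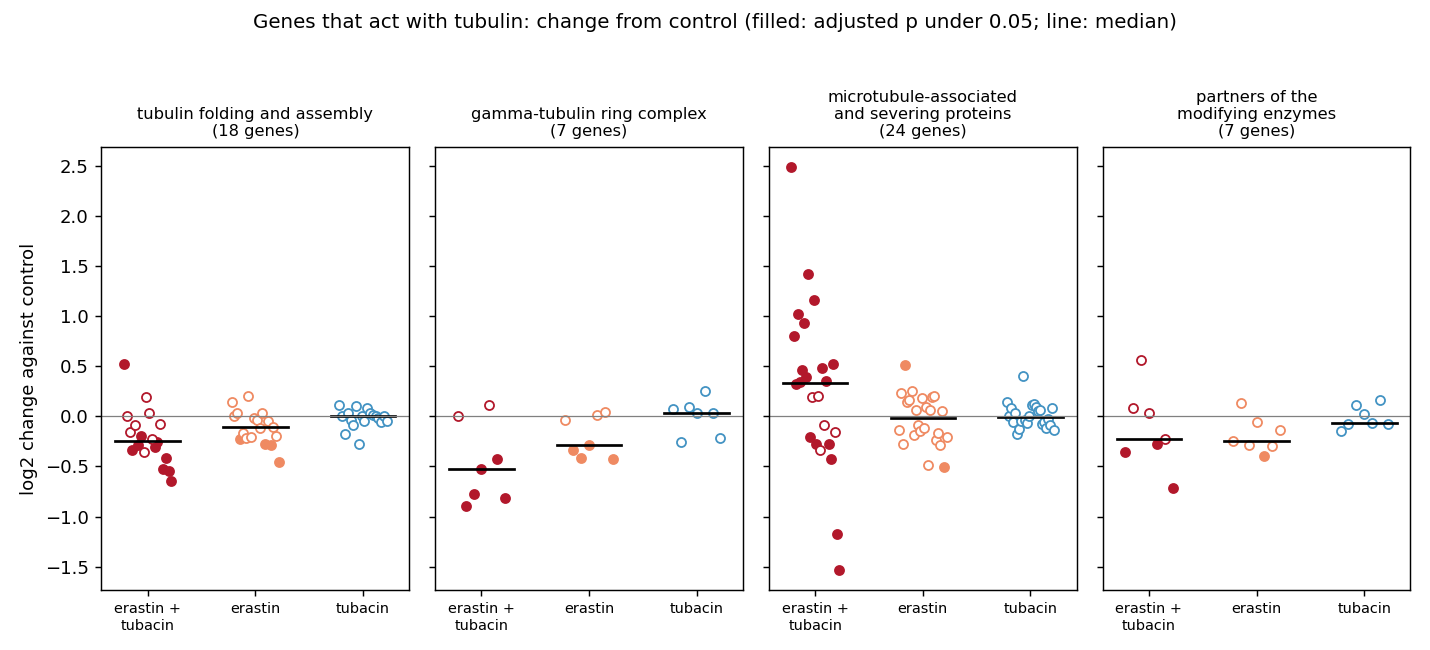
Change against control (log2, vertical axis) of each gene in 4 lists of genes that act with tubulin, with erastin plus tubacin, erastin and tubacin from left to right; filled points passed an adjusted p of 0.05 and lines are medians. With both drugs the ring complex lies mostly below 0 (median -0.52) and the binding and severing proteins spread from -1.53 to 2.48.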

How the data were processed

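Human Gene 2.1 ST arrays were hybridised with RNA of 12 HCC38 samples. The deposited values are log2 values that the authors obtained by RMA. The version of RMA is not given in the sources used. Array medians lay between 3.06 and 3.12. Of 53617 probe sets, 23866 carry exactly 1 gene symbol in the platform annotation. For each of 22392 genes the probe set with the highest mean over the 12 samples was used. TUBB and ATAT1 have 7 probe sets each, 6 of them with identical values.

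One linear model of the 4 group means was fitted in R 4.3.3 with limma 3.58.1 (eBayes), and p-values were adjusted by Benjamini-Hochberg over all genes. The fit was tested on simulated data. No filter was applied to dim genes. Values by sample are given for genes that passed against control with a change of at least 0.5 or passed the interaction, for the main enzymes of acetylation and tyrosination, and for the alpha-, beta- and gamma-tubulin with the highest mean. The members and the gene lists were chosen with earlier results of these data known. Alternatives covered normalization, scaling to reference genes, the choice of probe sets, a dim filter, variance moderation, only the groups compared, the replicate block, the threshold, the methods' t-test and leaving out each sample. Counts in the related gene lists were repeated with the other normalizations, the scaling, the dim filter and the replicate block. Same-numbered samples did not deviate together, and the replicate number was not used as a block. Promoter windows came from RefSeq and were searched in Python 3 by letters.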

Additional observations from a re-analysis of the deposited data

Results flagged for a closer look

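For 7 of the 44 genes the effect of tubacin differed between cells with and without erastin, by the interaction term of the limma fit. It was positive for 6.82% of the 44 and negative for 9.09%, near the 6.2% and 8.84% of all genes. TTLL7 gave 1.30, TUBA1A 1.06 and AGTPBP1 0.83, and TUBE1 gave -1.17, AGBL3 -0.82, TUBG1 -0.71 and TTLL12 -0.54 (log2). With each sample left out in turn the interaction of TTLL7, TUBA1A, AGTPBP1, TUBE1, TUBG1 and TTLL12 passed every time, with values of 1.26 to 1.35 for TTLL7, 0.89 to 1.22 for TUBA1A, 0.71 to 0.89 for AGTPBP1, -1.22 to -1.13 for TUBE1, -0.79 to -0.64 for TUBG1 and -0.56 to -0.51 for TTLL12. AGBL3, a dim probe set, lost the call without control replicate 2 or 3, erastin replicate 1 or 3, tubacin replicate 2 or 3, or erastin plus tubacin replicate 2 or 3, with values from -0.96 to -0.66 over all samples left out. With 3 samples per group no sample was tested as an outlier.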

How the results depend on the processing

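None of the 41 called changes followed gene by gene reversed its sign under the alternatives run for them. Calls were lost, however. Of the 41, 12 were lost at an adjusted p under 0.01, 7 with every probe set tested, 5 with the replicate block, 4 with the reference scaling and 0 with trend and robust moderation. Of the 34 outside the interaction, 13 were lost by the methods' t-test adjusted, 4 by it unadjusted and 7 with only the groups compared. TTLL4, TUBB6 and the related genes were followed only within counts. With erastin plus tubacin against control the count of 18 genes stayed between 12 and 20, and the count of 7 for the interaction between 5 and 10. Over all genes the count of 6956 with both drugs ranged from 4756 to 7493, and that of 3369 for the interaction from 1808 to 4235. The erastin count of 5 was 3 with every probe set tested, with the replicate block, at an adjusted p under 0.01 and by the methods' t-test adjusted, 9 with trend and robust moderation, 13 by the methods' t-test unadjusted, and 3 to 6 with each sample left out. Over all genes the erastin count of 1869 was 950 with every probe set tested, 1424 with the replicate block and 773 at an adjusted p under 0.01. It was 635 by the methods' t-test adjusted, 2634 with trend and robust moderation and 4217 by the unadjusted t-test. With each sample left out it was 1065 to 1762. The tubacin count of 0 became 4 by the methods' t-test unadjusted and stayed 0 otherwise, each sample left out included. Against erastin, the count of 14 was 8 at an adjusted p under 0.01 and 9 to 17 with each sample left out. The lowest of these came without erastin plus tubacin replicate 1. The cause was not tested. The methods' t-test and the fit of only the groups compared were not run for the interaction.

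Replicate numbers are shared between groups, but same-numbered samples did not deviate together (correlation of deviations -0.089 to 0.102 over 18 pairs, 1 of them over 0.1). With the replicate block the counts were 17 for erastin plus tubacin, 3 for erastin, 0 for tubacin, 13 against erastin and 6 for the interaction. In the same order, the block gave 6616, 1424, 23, 5412 and 2968 of all genes. Without it these were 6956, 1869, 52, 5782 and 3369. The number of arrays, 3 per group, limits the precision, and 12 of the 44 genes lay at or below the dim mark.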
